A study of Homo sapiens with 23 samples.

Results

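The chromosome 9 loops of T47D cells were the 691 of 9591 loops (7.20%) in the list of the library labelled T30 and the 272 of 7075 loops (3.84%) in the list of the library labelled T0 whose first end lies on chromosome 9. T47D is a human breast cancer cell line with abundant progesterone receptor. Both libraries are HiChIP against that receptor: neighbouring DNA ends in the fixed nucleus are ligated, and ligated fragments bound by the receptor are pulled down with an antibody. The title of the T30 library adds the code PR5020, which is read here as the receptor plus R5020, the synthetic progestin of the treatment protocol; the T0 library carries no such addition, and for these libraries no dose and no unit of time are given. The protocol shared by both describes a step in hormone-stripped serum and then serum-free medium before exposure. Of the 23 samples of the series, these 2 were used, with 1 library per condition, so no difference below has a replicate check and every interval covers counting error alone. Chromosome 9 was selected on its ratio of T30 to T0 loops, the highest of 23 chromosomes, so that difference is described without a test.

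The progesterone receptor is a steroid hormone receptor that binds DNA once a progestin occupies it and recruits coactivators, largely at enhancers. Enhancers can lie far from the genes they act on, and a loop places such an element near a promoter. The full recognition element of the receptor is an inverted repeat of a 6-base motif, and many bound places hold 1 copy only. Chromosome 9 has a gene-poor middle with a long block of heterochromatin beside the centromere and a gene-dense end of the long arm, here called distal 9q and taken as loops whose first end starts at 120000000 or beyond. Genes there include VAV2, RXRA, NOTCH1 and CDK9.

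Promoter sequences are shown for 5 genes whose start site lies in a bin described below, because each is the DNA at the end of a set of loops. They run from 250 bases before to 50 bases after the start site, 5′ to 3′ on the strand of the gene, from RefSeq on GRCh38.p14, with the start-site base in capitals.
CDK9, chr9:127785784-127786083, plus strand: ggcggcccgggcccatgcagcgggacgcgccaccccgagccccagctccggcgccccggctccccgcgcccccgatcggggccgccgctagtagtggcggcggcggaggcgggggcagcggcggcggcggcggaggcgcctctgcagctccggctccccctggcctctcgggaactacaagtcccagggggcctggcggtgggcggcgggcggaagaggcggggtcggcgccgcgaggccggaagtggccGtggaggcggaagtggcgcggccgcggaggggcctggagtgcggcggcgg
PAXX, chr9:136992172-136992471, plus strand: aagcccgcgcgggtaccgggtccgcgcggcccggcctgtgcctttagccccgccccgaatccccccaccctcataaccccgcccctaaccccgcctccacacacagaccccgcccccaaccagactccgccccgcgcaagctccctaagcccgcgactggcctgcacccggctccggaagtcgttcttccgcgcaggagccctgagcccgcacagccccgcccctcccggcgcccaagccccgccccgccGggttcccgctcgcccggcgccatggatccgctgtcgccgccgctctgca
VAV2, chr9:133992275-133992574, minus strand: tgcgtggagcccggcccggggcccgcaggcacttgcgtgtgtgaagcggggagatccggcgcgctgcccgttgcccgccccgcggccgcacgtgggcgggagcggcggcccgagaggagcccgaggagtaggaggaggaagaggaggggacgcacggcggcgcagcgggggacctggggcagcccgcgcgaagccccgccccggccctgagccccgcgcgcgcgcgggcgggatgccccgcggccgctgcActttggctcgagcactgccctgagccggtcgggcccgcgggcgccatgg
NOTCH1, chr9:136545999-136546298, minus strand: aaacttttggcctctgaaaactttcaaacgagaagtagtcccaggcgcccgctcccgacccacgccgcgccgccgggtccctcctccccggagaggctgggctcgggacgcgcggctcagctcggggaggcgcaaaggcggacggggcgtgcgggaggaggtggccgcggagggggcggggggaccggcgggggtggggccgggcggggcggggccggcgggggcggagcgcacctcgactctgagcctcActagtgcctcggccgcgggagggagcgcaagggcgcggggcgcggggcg
KLF4, chr9:107489720-107490019, minus strand: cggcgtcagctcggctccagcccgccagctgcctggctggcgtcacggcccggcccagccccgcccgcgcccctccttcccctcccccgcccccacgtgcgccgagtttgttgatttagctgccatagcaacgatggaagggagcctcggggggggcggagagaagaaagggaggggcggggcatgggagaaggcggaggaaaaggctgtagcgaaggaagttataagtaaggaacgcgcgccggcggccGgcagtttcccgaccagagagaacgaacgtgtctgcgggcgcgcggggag
NOTCH1 and KLF4 were added to the promoters shown after their loops had been seen. The shown sequences are 82.0% G or C at CDK9, 75.7% at PAXX, 80.0% at VAV2, 77.0% at NOTCH1 and 69.0% at KLF4.

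The shown promoters hold neither the full progesterone response element nor the single motif AGAACA on either strand. Of the 677 chromosome 9 promoters in the table, 0 held the full element, against 39 of 15812 promoters of all chromosomes (0.247%). The single motif, which can overlap the full element, was in 63 of the 677 chromosome 9 promoters (9.31%) and in 11.2% of all promoters. It was in 6 of the 117 chromosome 9 promoters whose start-site bin was at a T30 loop (5.13%, exact binomial interval 1.90 to 10.8%) and in 2 of the 77 at a T0 loop (2.60%). Among the 530 chromosome 9 promoters at no loop, 56 held it (10.6%, interval 8.08 to 13.5%). The promoters at loops were richer in G and C, with medians of 68.7% at T30 loops and 67.7% at T0 loops against 63.7% at no loop, and this was not separated from the share with the motif. A match or its lack describes these 300-base windows only.

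MicroRNA genes also lay at loop ends. Of 76 hairpins on chromosome 9, 11 (14.5%) were in a bin with a T30 loop and 3 (3.95%) in a bin with a T0 loop; 4 of the 11 share 1 bin. On the other chromosomes 6.21% of 1482 hairpins were in a T30 and 4.32% in a T0 loop bin. The mature forms below, from RefSeq, are shown because their genes share a bin with a loop described below; the seed, bases 2 to 8, is in capitals.
hsa-miR-23b-3p: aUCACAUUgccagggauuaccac
hsa-miR-27b-3p: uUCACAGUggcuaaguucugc
hsa-miR-24-3p: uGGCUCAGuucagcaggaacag
hsa-miR-455-3p: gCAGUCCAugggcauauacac
hsa-miR-4669: uGUGUCCGggaaguggaggagg
hsa-miR-4674: cUGGGCUCgggacgcgcggcu
The 16 mature sequences of these genes in the table have 16 distinct seeds, so none are grouped. MIR23B, MIR27B, MIR3074 and MIR24-1 lie together in AOPEP in 1 bin of 5 kb, MIR455 lies in COL27A1 and MIR4669 in RXRA; each of these bins had a T30 loop and no T0 loop. MIR4674 lies at the start of NOTCH1, and its mature sequence is the stretch from 154 to 134 bases before the start site in the promoter printed above. MIR3960 lies in the bin of the CDK9 start site.

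Chromosome 9 had more loops listed in T30 than in T0 in all 3 of its parts and in most of its looped windows. The 691 T30 loops against 272 T0 loops give 2.54 T30 loops per T0 loop (95% interval 2.20 to 2.93). The other chromosomes, 1 to 22 and X, had 8896 T30 loops and 6803 T0 loops, or 1.31 (1.27 to 1.35), and the chromosome 9 ratio was 1.94 times theirs. In order of ratio chromosome 9 was followed by chromosome 4 with 179 T30 and 80 T0 loops (2.24, 1.71 to 2.95), chromosome 22 with 1.93 and chromosome 8 with 1.83. The intervals of chromosomes 9 and 4 overlap. Per megabase, chromosome 9 had 5.00 loops in T30, rank 5 of 23, and 1.97 loops in T0, rank 15.

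**Figure D1:**
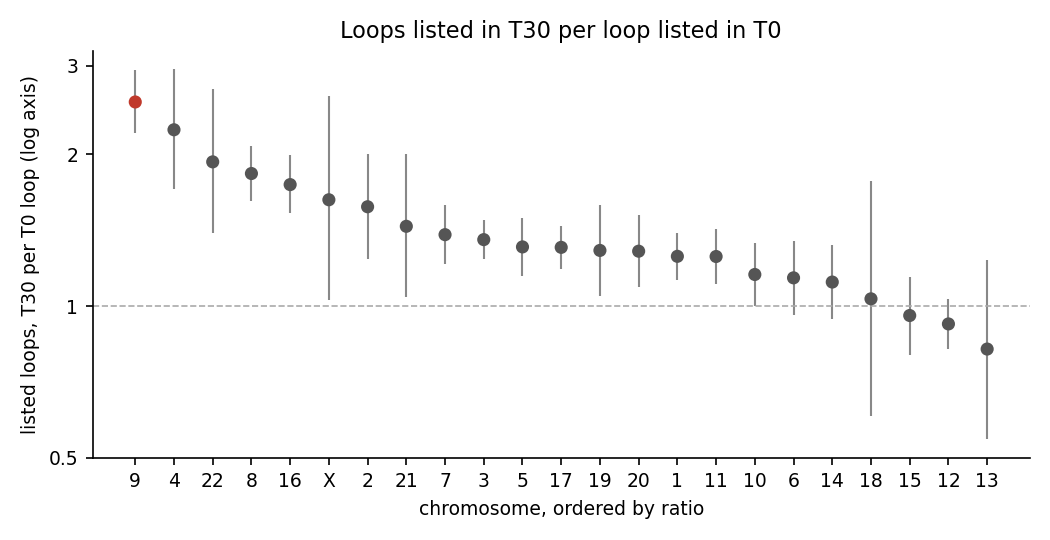
Loops in the T30 list per loop in the T0 list (vertical log axis) for each of 23 chromosomes, ordered by ratio; points are ratios and bars are 95% intervals from an exact binomial interval. Chromosome 9, in red, stands at 2.54, and chromosome 4 follows at 2.24 with an overlapping interval.

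Contacts, the read pairs behind each loop, differed less than loop numbers. Chromosome 9 loops summed to 9839 contacts in T30 and 5411 in T0, a ratio of 1.82, against 1.03 on the other chromosomes. A chromosome 9 loop had a median of 13 contacts in T30 (quartiles 11 to 16, range 8 to 38) and of 16 in T0 (13 to 22, range 7 to 69). The lists were not cut at the same strength: both end at a q-value of 0.05, but the largest p-value among chromosome 9 loops was 2.83e-05 in T30 and 0.000231 in T0. No T30 loop on any chromosome spanned under 20 kb, whereas 574 T0 loops did. On chromosome 9 there were 26 of these, with a median of 49.5 contacts. They are in the T0 sum and range above, and without them the T0 median was 15 contacts. The ratio of summed contacts was not taken without them. With spans of 20 kb or more in both lists, the chromosome 9 ratio of loops was 2.81 (2.43 to 3.26), 1.98 times that of the other chromosomes. With the T30 list held to the length of the T0 list by q-value, 515 chromosome 9 loops were left in T30 and the ratio was 1.89. How deeply each library was sequenced is not known here, and its part in the loop numbers was not tested.

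Distal 9q held most of the loops. It had 473 of the 691 T30 loops (68.5%, interval 64.8 to 71.9%) and 161 of the 272 T0 loops (59.2%, 53.1 to 65.1%), in 18.1 Mb with 290 protein-coding genes. This is 26.1 loops per Mb in T30 and 8.88 in T0, and 163 loops per 100 genes in T30 and 55.5 in T0. The long arm before it, proximal 9q, had 167 T30 and 92 T0 loops (2.17 and 1.19 per Mb). The short arm had 51 T30 and 19 T0 loops (1.19 and 0.442 per Mb).

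The ratio of T30 to T0 loops was 2.94 in distal 9q (2.45 to 3.54), 1.82 in proximal 9q (1.40 to 2.37) and 2.68 on the short arm (1.56 to 4.81). The interval of distal 9q lies above that of proximal 9q, and that of the short arm overlaps both. Without distal 9q the chromosome had 218 T30 and 111 T0 loops, a ratio of 1.96 (1.56 to 2.49). At the border, the window just outside, from 119 to 120 Mb, had 0 T30 loops and 1 T0 loop, and the window just inside, from 120 to 121 Mb, had 15 T30 and 5 T0 loops.

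Distal 9q was also set beside stretches of equal length at the long-arm end of the other chromosomes. By ratio it had rank 4, after chromosome 2 with 32 T30 and 6 T0 loops, chromosome 7 with 21 and 4, and chromosome 10 with 16 and 5, all on few loops. By number of loops it had rank 2 in T30 and rank 5 in T0. Together, the other ends had 2692 T30 and 1834 T0 loops (1.47, 1.38 to 1.56).

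Gene density was compared over windows of 1 Mb. In the 8 chromosome 9 windows with 20 or more protein-coding genes, 238 T30 and 79 T0 loops were listed, a ratio of 3.01 (2.33 to 3.94), against 1.36 (1.27 to 1.45) in the 211 such windows of the other chromosomes. In the 54 chromosome 9 windows with 1 to 4 genes there were 54 T30 and 24 T0 loops (2.25, 1.37 to 3.81), against 1.03 elsewhere. The narrowest gap was in windows of 10 to 19 genes, with 215 T30 and 101 T0 loops on chromosome 9 (2.13, 1.67 to 2.72) and 1.59 (1.49 to 1.69) on the others. Windows with 1 or more genes on chromosome 9 thus had the higher ratio in each of 4 classes of gene density.

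Among the 139 windows of the chromosome, 68 held a T30 loop and 47 a T0 loop, with 43 holding both, 25 T30 loops alone and 4 T0 loops alone. More loops were listed in T30 in 57 windows and fewer in 11. All 19 distal 9q windows had more in T30. Windows rich in T30 loops tended to be rich in T0 loops, with a Spearman correlation of 0.77 over the 139 windows, which share the libraries and their gene content. Leaving out any 1 window left the chromosome's ratio between 2.42 and 2.61, lowest without the window from 136 to 137 Mb.

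In 27 windows there were 8 or more loops in either list, 17 of them in distal 9q, and 25 of the 27 had more in T30. The fullest T30 window, from 133 to 134 Mb, had 58 T30 and 12 T0 loops and holds the SURF genes, ADAMTSL2, SARDH and VAV2. The window from 129 to 130 Mb had 51 T30 and 23 T0 loops and includes NTMT1 and PTGES. Next was that from 127 to 128 Mb, with 46 T30 and 19 T0 loops, around CDK9 and ENG.

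At the end of the arm, the window from 136 to 137 Mb, around NOTCH1, had 44 T30 and 5 T0 loops. The next, from 137 Mb, had 44 and 15, and the last, from 138 Mb, had 1 and 0. Between them and VAV2, the window from 134 to 135 Mb with RXRA and COL5A1 had 22 T30 loops and 0 T0 loops, and that from 135 to 136 Mb with OLFM1 had 30 and 7. The T0 list thus had no loop in the RXRA window although windows on both sides had 7 and 12.

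Outside distal 9q, the fullest windows were from 114 to 115 Mb, around COL27A1, WHRN and TMEM268, with 27 T30 and 14 T0 loops, and from 111 to 112 Mb, up to UGCG, with 21 and 3. The window from 94 to 95 Mb with AOPEP had 11 T30 loops and 1 T0 loop. Fewer loops in T30 were listed in the windows from 104 to 105 Mb, with a row of olfactory receptor genes and ABCA1 (6 T30, 9 T0 loops), and from 109 to 110 Mb, with PTPN3 and PALM2AKAP2 (8 and 10). On the short arm only the window from 12 to 13 Mb, with TYRP1 and LURAP1L, reached the number, with 8 T30 and 3 T0 loops.

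**Figure D2:**
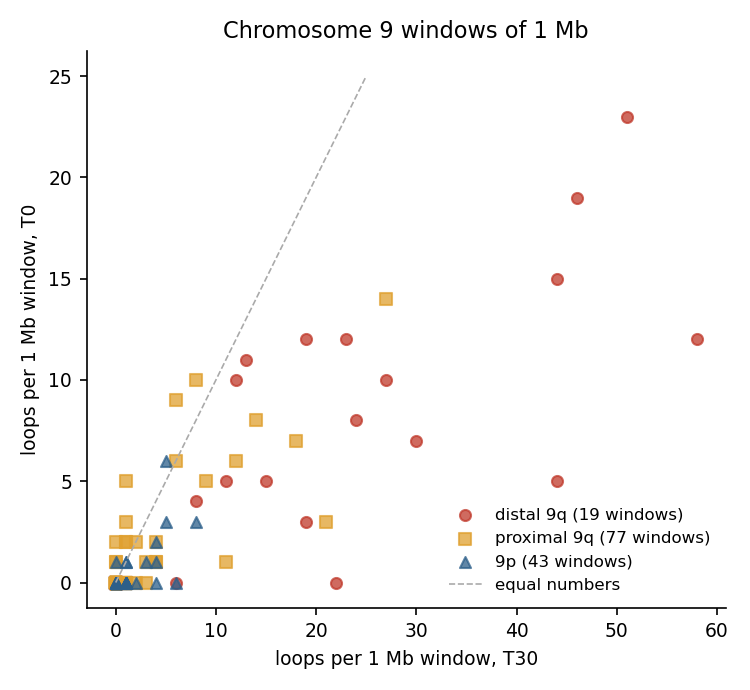
Loops per 1 Mb window of chromosome 9 in T30 (horizontal axis) and T0 (vertical axis), 1 point per window, by part of the chromosome, with a dashed line at equal numbers. All 19 distal 9q windows lie on the T30 side of the line, up to 58 T30 and 12 T0 loops, and 1 distal window lies at 22 T30 and 0 T0 loops.

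Around the centromere a stretch of 24.7 Mb in T30 and of 30.4 Mb in T0 held no loop. Its last T30 end was in SHB, which encodes an SH2-domain adaptor protein, at chr9:38065001-38070000. Between that gap and KLF9, 1 T30 loop was listed, from 62800001 to 63820000 with 9 contacts. This pericentromeric stretch holds near-identical copies in the genome, so that loop is uncertain.

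Loops of chromosome 9 were shorter in T30. The median span was 65 kb in T30 (quartiles 30 to 140) and 160 kb in T0 (85 to 280), against 80 kb in T30 and 190 kb in T0 on the other chromosomes. By part, medians in T30 and T0 were 40 and 140 kb on the short arm, 75 and 245 kb in proximal 9q and 65 and 135 kb in distal 9q. The T30 list therefore had the shorter median in all 3 parts.

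The surplus of T30 loops was in the short classes. From 20 to under 50 kb there were 271 T30 and 12 T0 loops, a ratio of 22.6 (12.7 to 44.3), against 7.90 (7.06 to 8.86) on the other chromosomes. From 50 to under 100 kb there were 168 and 38 (4.42, against 2.56), and from 100 to under 200 kb 156 and 86 (1.81, against 1.27). From 200 to under 500 kb the numbers were 84 and 89 (0.944, against 0.578), and at 500 kb and more 12 and 21 (0.571, 0.256 to 1.22, against 0.334). The chromosome 9 ratio was thus above that of the other chromosomes in every class with T30 loops, by 1.43 to 2.86 times. In the class under 20 kb, chromosome 9 had 0 T30 and 26 T0 loops. In distal 9q, 177 of the 473 T30 loops and 6 of the 161 T0 loops were from 20 to under 50 kb.

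**Figure D3:**
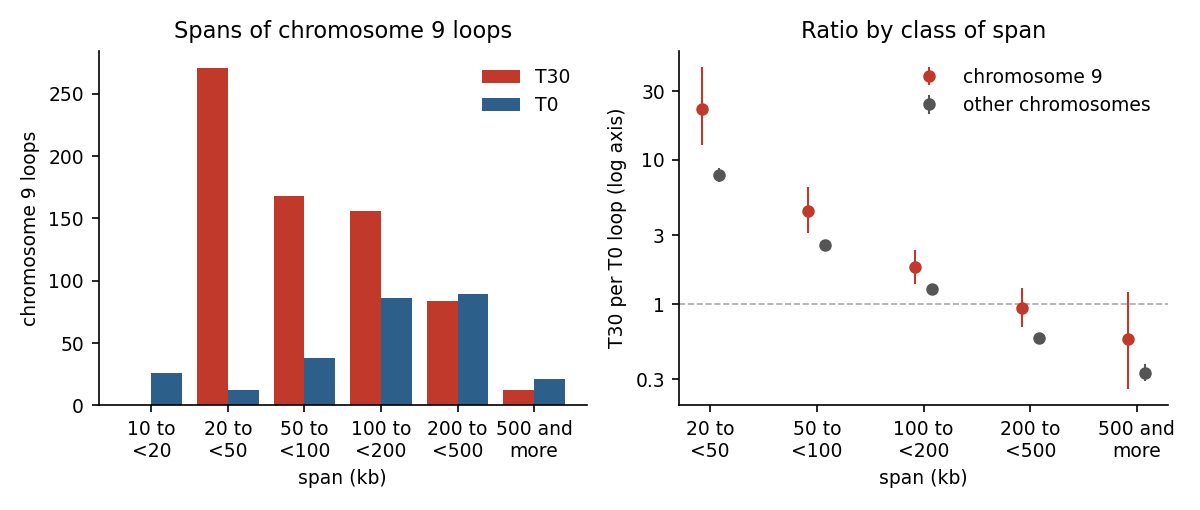
Left, number of chromosome 9 loops by class of span in kb, T30 in red and T0 in blue. Right, T30 loops per T0 loop (log axis) in each class with T30 loops, chromosome 9 in red and the other chromosomes in grey, with 95% intervals; chromosome 9 lies above the others in all 5 classes and both fall with span, from 22.6 and 7.90 to 0.571 and 0.334.

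Most loop ends lay in genes. On chromosome 9, 348 of 691 T30 loops (50.4%, 46.6 to 54.2%) and 120 of 272 T0 loops (44.1%, 38.1 to 50.2%) had both ends in a protein-coding gene. Both ends lay in the same gene for 201 T30 loops (29.1%, 25.7 to 32.6%) and 42 T0 loops (15.4%, 11.4 to 20.3%). A start site at 1 end or both was less frequent in T30: 540 T30 loops (78.1%, 74.9 to 81.2%) and 177 T0 loops (65.1%, 59.1 to 70.7%) had none. Pairs of start sites were joined by 12 T30 and 9 T0 loops. Short spans place both ends in 1 gene more readily, and that was not separated here. The T0 shares also include 26 loops under 20 kb, a class the T30 list lacks, and these were not set apart.

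Among 778 protein-coding genes of the chromosome, 294 (37.8%, 34.4 to 41.3%) had a T30 loop end in the gene and 169 (21.7%, 18.9 to 24.8%) a T0 loop end. Over genes of all chromosomes the shares were 23.5% in T30 and 19.7% in T0. At the start site, 117 of 677 genes (17.3%) had a T30 loop and 77 (11.4%) a T0 loop, against 8.63% in T30 and 8.77% in T0 over the other chromosomes. In distal 9q, 197 of 290 genes (67.9%) had a T30 and 107 (36.9%) a T0 loop end.

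Partners, the distinct 5 kb bins joined to a gene, gave the same picture by gene. Of the 778 genes, 238 (30.6%) had more partners in T30 and 67 (8.61%) fewer, with 28 of those looped equal; over genes of all chromosomes, 16.5% had more in T30 and 11.6% fewer. The 333 genes with a loop in either library comprised 130 with loops in both, 164 in T30 alone and 39 in T0 alone. These are counts that the surplus of loops fixes in large part, and no test was made of them.

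VAV2 had the most partners of all chromosome 9 genes. It encodes a guanine nucleotide exchange factor that acts downstream of receptor tyrosine kinases. The gene, at chr9:133761894-133992324 on the minus strand, had 28 partners, 26 loops and 372 contacts in T30, against 3 partners, 2 loops and 44 contacts in T0. Both T0 loops started from the bin of the start site, whose promoter is printed above, and reached bins 190 and 215 kb into the gene with 21 and 23 contacts.

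In T30 that bin had 5 loops, and the loop to the bin at 133785001 had the most contacts, 21. The other start-site loops reached 133770001, 133815001, 133840001 and 133880001 with 12, 13, 14 and 12 contacts. Of the 26 T30 loops, 23 had both ends in VAV2, with 9 to 26 contacts over all 26 and spans of 20 to 235 kb. The T30 loops thus filled the middle of the gene, where T0 listed none, while the long loops from the start were in both lists.

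The bin at 133880001, in the body of VAV2, alone had 7 partners in T30 and 0 in T0, with 104 contacts. Next to VAV2, SARDH, which encodes a mitochondrial enzyme that breaks down sarcosine, had 10 partners in T30 and 0 in T0. ADAMTSL2, a secreted matrix protein related to the ADAMTS proteases, had 9 and 0. Several of their loops joined the pair: the ADAMTSL2 bin at 133535001 had 6 partners in T30, from 35 to 200 kb away, and 0 in T0. No T0 loop had an end in either gene.

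RXRA, which encodes the retinoid X receptor that pairs with many nuclear receptors, had 11 loops, 12 partners and 179 contacts in T30 and none of these in T0. Of the 11, 8 had both ends in the gene, with 10 to 24 contacts over all 11. Upstream of the gene, the bin at chr9:134230001-134235000, 70.0 kb from WDR5 and not in a protein-coding gene, had 5 partners in T30 and 0 in T0. Its loop to the bin at 134250001 had 35 contacts, and another, of 150 kb, reached into RXRA with 12. No loop end was at the RXRA start site in either list.

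NOTCH1, which encodes a transmembrane receptor cut on ligand binding to release a transcriptional activator, had 11 loops with 165 contacts and 10 partners in T30, and no loop in T0. In T30 the start-site bin joined bins at 136565001, 136575001 and 136600001, upstream of the gene, with 20, 16 and 12 contacts. From the bin at the end of the gene, at 136490001, a loop of 130 kb reached 136620001 with 27 contacts. The T0 list had a loop nearby, from the bin of the SEC16A start site at 136480001 to 136625001 with 16 contacts. Counted with 10 kb on each side, NOTCH1 had 10 partners in T30 and 2 in T0.

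Other genes with 10 or more partners in T30 were spread over the long arm. AOPEP, an aminopeptidase gene, had 12 partners in T30 and 2 in T0, and RALGPS1, an exchange factor for Ral GTPases, had 12 and 0. EHMT1, which encodes a histone H3 lysine methyltransferase, had 10 and 0, while PRRC2B had 12 and 2. LOC124900275 had 16 in T30 and 3 in T0. NR6A1, an orphan nuclear receptor gene, had 14 in T30 and 9 in T0, COL27A1, a fibrillar collagen gene, 12 and 5, and PALM2AKAP2 12 and 8. In the same range were ASTN2 with 10 T30 and 5 T0 partners, and TMEM268 with 10 and 0. TMEM268 had 10 and 6 when 10 kb was added on each side, so that its T0 loops lay just beyond the gene.

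Fewer partners in T30 were found for genes with lower numbers overall. TTLL11, which encodes a tubulin polyglutamylase, had 2 partners in T30 and 8 in T0. For NTMT1, an N-terminal methyltransferase gene, they were 5 and 9. SLC44A1, a choline transporter gene, had 2 in T30 and 6 in T0, and TRPM6, a magnesium channel gene, 1 and 5. ATOSB had 1 in T30 and 4 in T0, and GPR107 and TNC each had 0 and 3; TNC encodes tenascin-C, a matrix glycoprotein. All these numbers were the same with loops of 20 kb or more only. At CIZ1, MED22, C9orf152 and DYNC2I2 some or all T0 loops were shorter than that, a class the T30 list lacks. With loops of 20 kb or more, T30 and T0 partners were 1 and 1 at CIZ1, 1 and 2 at MED22, 0 and 1 at C9orf152 and 0 and 0 at DYNC2I2. The T0 loop left at C9orf152, with 39 contacts, was matched by a T30 loop with 33 contacts that ended in the next bin. Over the 778 genes this left 248 with more partners in T30 and 46 with fewer. The largest deficit, of 6 partners at TTLL11, was thus small beside the surplus of 25 at VAV2.

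**Figure D4:**
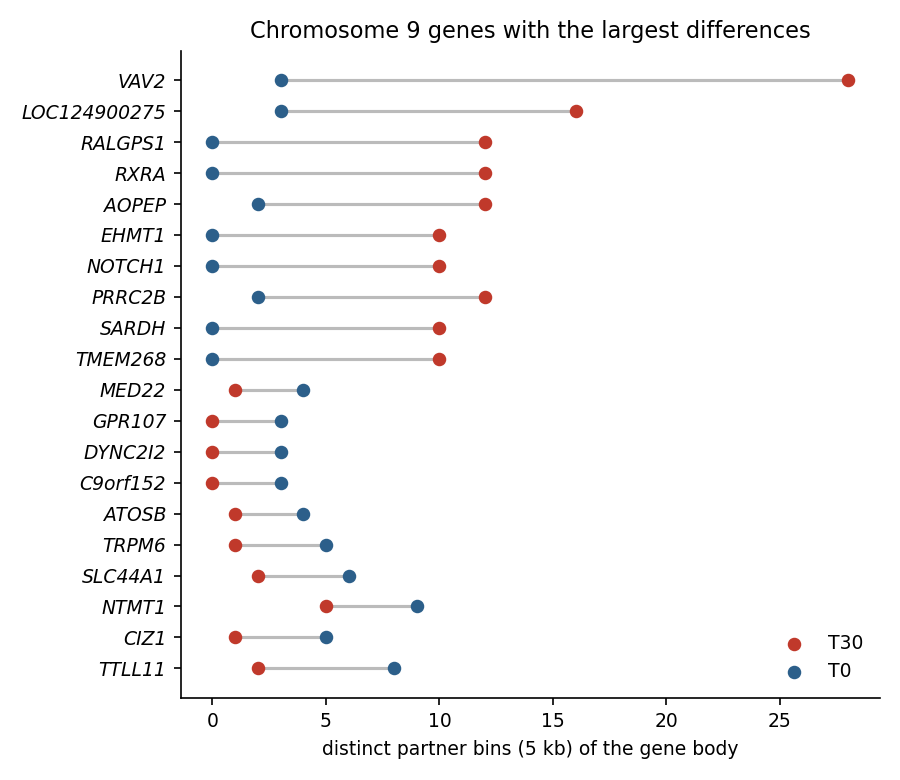
Partner bins of the 10 chromosome 9 genes with the largest surplus and the 10 with the largest deficit of partners in T30, with T30 in red and T0 in blue. VAV2 stands at 28 and 3 and TTLL11 at 2 and 8; the surpluses span a wider range than the deficits, and the T0 values of CIZ1, MED22, C9orf152 and DYNC2I2 include loops under 20 kb.

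A hub is here a bin with 5 or more partners. There were 21 hubs among 948 looped bins in T30 and 11 among 382 in T0, and 1 bin was a hub in both. Most bins had 1 partner, 73.8% in T30 and 76.4% in T0. Of the hubs, 12 in T30 and 5 in T0 were in distal 9q.

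The bin with the most partners, chr9:112010001-112015000, lay between genes, 25.8 kb from SUSD1. It had 15 partners in T30 with 240 contacts and 0 in T0. Of its partners, 12 lay below it, as far as 250 kb, and 3 above it. Its loops with most contacts joined bins 25, 60 and 45 kb above it, with 25, 24 and 23 contacts, and the last 2 lie in SUSD1. One loop, with 18 contacts, joined the start site of UGCG, which encodes the enzyme that makes glucosylceramide. UGCG had 6 loops with 73 contacts in T30 and none in T0.

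The T0 list showed another set of loops beside it. Its hub at chr9:112110001-112115000, in SUSD1 and 100 kb away, had 5 partners in T0 and 1 in T30. In T0 this bin joined PTBP3, a gene of an RNA-binding protein, at 112360001 and 112345001 with 29 and 19 contacts. The T30 loop of that bin reached 112350001, also in PTBP3, with 14 contacts. Each of these 2 hubs thus had many partners in 1 list and few or none in the other.

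The hub in AOPEP at 94815001 had 10 partners in T30 and 0 in T0, with 140 contacts. Its loop with most contacts, 20, spanned 105 kb to 94920001. Its longest loop, of 270 kb with 9 contacts, ended at chr9:95085001-95090000, the bin of MIR23B, MIR27B and MIR24-1. In T0 the gene had 1 loop, from 94780001 to 94925001, with 10 contacts.

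In TMEM268, the bin at 114615001 had 9 partners in T30 and 0 in T0, with 135 contacts. Of these, 5 lie in WHRN, which encodes a scaffold protein of hair cells, among them its start site with 11 contacts. A T0 hub lay close by at 114650001, in no protein-coding gene, with 5 partners in T0 and 0 in T30. The bin at 129490001 in LOC124900275 had 13 partners in T30 and 2 in T0, and the bin at 129480001, beside it, had 9 and 5; they are part of a dense stretch of 0.3 Mb around NTMT1, in which 35 T30 and 19 T0 loops had an end.

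The start sites of CDK9, PAXX and VAV2, printed above, lay in T30 hubs. CDK9 encodes the kinase of the elongation factor P-TEFb, which phosphorylates RNA polymerase II. Its start-site bin had 6 partners in T30 and 1 in T0, with 83 and 15 contacts. In T30 it joined ENG, a co-receptor of TGF-beta family ligands, at 127825001 with 17 and at 127840001 with 15 contacts, then AK1 with 15, ST6GALNAC6 with 11 and ST6GALNAC4 with 15. The T0 loop reached 127920001, in PIP5KL1, with 15 contacts and was matched by the T30 loop to ST6GALNAC4. The neighbouring bin at 127780001, 1.03 kb outside CDK9, was joined in T0 to 127590001 with 24 and to 127735001 with 31 contacts. In T30 that bin was joined to 127735001 with 19 contacts. Within 10 kb of the start-site bin, 8 T30 and 3 T0 loops had an end.

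PAXX, whose protein acts in the joining of DNA double-strand breaks, shares its bin with the end of CLIC3. The bin had 6 partners in T30 and 1 in T0, with 89 and 14 contacts. In T30 it joined the start sites of LCN12, NPDC1 and SAPCD2 with 16, 14 and 11 contacts, and ABCA2, a lipid transporter gene, with 25. The bin at 137610001 in ARRDC1 had 7 partners in T30 and 1 in T0, among them the start site of ZMYND19 with 35 contacts and 3 bins in EHMT1 with 20, 17 and 14.

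The T0 hub with most partners, at 121990001 in TTLL11, had 7 in T0 and 1 in T30. All 7 lay below it, from 225 to 445 kb away, with 10 to 17 contacts each. A T0 hub in the body of ABL1, a tyrosine kinase gene, at 130865001 had 1 partner in T30 and 6 in T0, with 14 and 132 contacts. The OLFM1 bin at 135085001, in a gene of a secreted olfactomedin-domain protein, had partners in both lists, 8 in T30 and 4 in T0, all above it.

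KLF4, which encodes a zinc finger transcription factor of epithelia and stem cells, had the longest T30 loop of the chromosome. From its start-site bin at 107485001, printed above, T30 loops reached 108270001 and 108565001, which are 785 and 1080 kb away, with 8 contacts each. Both targets lie in no protein-coding gene. The T0 list had no loop in that bin but had loops from the next one, at 107490001, to 108290001 with 9 and to 108560001 with 8 contacts. Those pairs of loops end within 20 kb of each other.

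The longest T0 loops were at the same place. T0 loops joined 107475001 to 108760001 over 1285 kb with 13 contacts and 107420001 to 108560001 over 1140 kb with 15. The longest, of 1320 kb, had 7 contacts. In the 1.4 Mb from 107400001 on, 5 T30 and 8 T0 loops had an end, with 63 and 93 contacts. Other long loops joined ASTN2 to a bin 471.8 kb from TNC, over 985 kb with 9 contacts in T30 and over 1055 kb with 11 in T0.

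**Figure D5:**
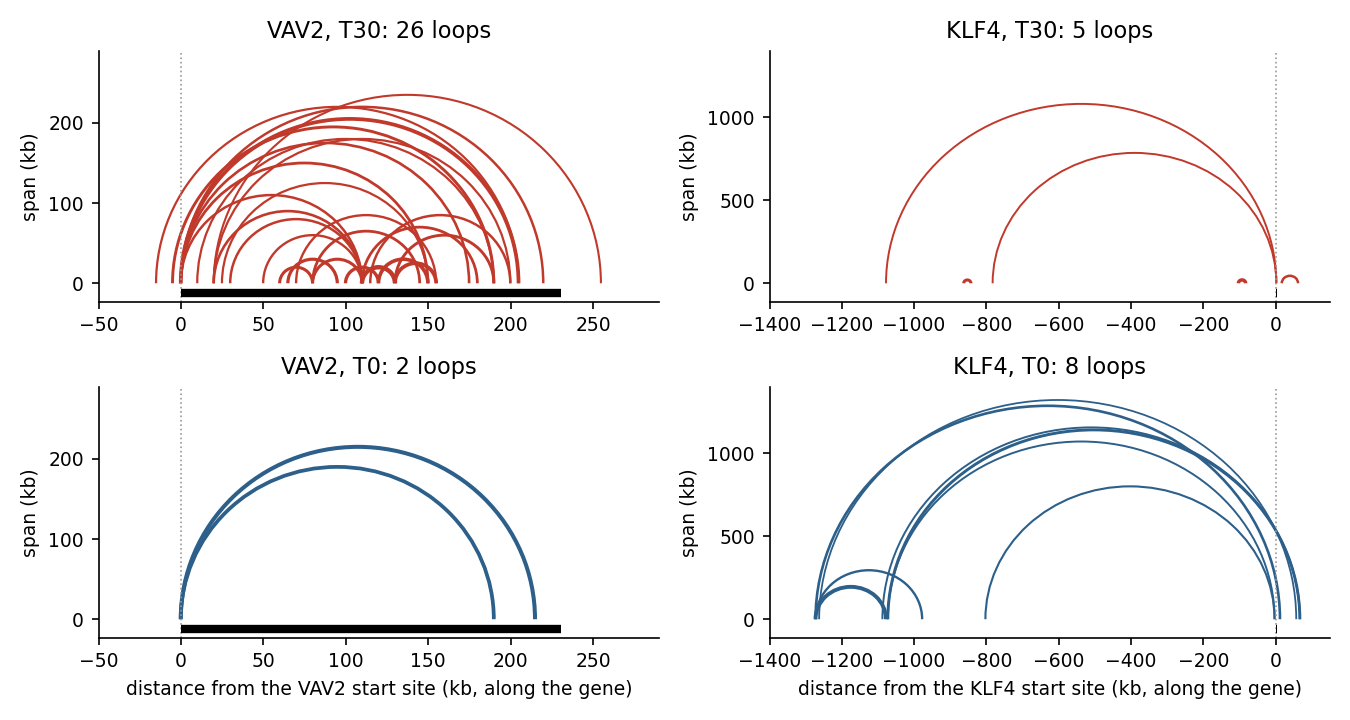
Loops with an end in VAV2 (left) and in the 1.4 Mb beside KLF4 (right), T30 above and T0 below, drawn as arcs by distance in kb from the start site along the gene; arc height is the span and line width grows with contacts, and the black bar is the gene. VAV2 has 26 T30 and 2 T0 loops, and the KLF4 stretch 5 and 8.

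The loops with most contacts are given by list. The T30 list has no loop under 20 kb, so T0 loops of 10 kb have no counterpart in it. In T30 the highest was the 20 kb loop from TPRN to NDOR1 with 38 contacts, then NR6A1 to WDR38 with 35 over 80 kb, the loop upstream of RXRA with 35, and ZMYND19 to ARRDC1 with 35. In T0 the first 10 all spanned 10 kb, led by the loop between AGPAT2 and DIPK1B with 69 contacts, the loop at the start sites of CIZ1 and DNM1 with 65, and loops near PTPN3, at TRUB2 and at ZMYND19 with 61 each. Among T0 loops of 20 kb or more, LRSAM1 led with 49 contacts, followed by PTGES, which encodes prostaglandin E synthase, with 46. The NR6A1 to WDR38 loop joined the same bins in both lists, with 35 contacts in T30 and 42 in T0.

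Recurrence between the lists was limited. A loop was recurrent where each end's merged cluster shared 1 bp or more with that of a loop in the other list. By this, 81 of 691 T30 loops (11.7%, 9.42 to 14.4%) and 76 of 272 T0 loops (27.9%, 22.7 to 33.7%) were in the other list. On the other chromosomes the shares were 16.8% of T30 and 22.0% of T0 loops. With identical bins there were 27, which is 3.91% of T30 and 9.93% of T0 loops.

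Recurrent loops in T30 had a median span of 145 kb, against 60 kb for T30 loops in that list alone, and their median contacts were 14 and 13. In T0, recurrent loops had a median of 20.5 contacts against 15 for the rest, with spans of 150 and 165 kb. Of T30 loops from 20 to under 50 kb, 3.69% recurred, and of those from 200 to under 500 kb 29.8%. In distal 9q, 13.5% of T30 and 34.2% of T0 loops recurred. The T30 loops absent from T0 were thus mostly short ones.

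Contacts of recurrent loops were compared pair by pair, a measure that did not choose chromosome 9. Over all chromosomes 1389 pairs were matched, 69 of them on chromosome 9. The median ratio of T30 to T0 contacts was 0.667 on chromosome 9 (quartiles 0.556 to 0.846) and 0.667 on the others. Loops listed in both thus had the same median ratio on chromosome 9 as elsewhere, and 11 of the 69 had more contacts in T30. Each pair was tested with an exact two-sided binomial test against 0.667, adjusted over the 1389 pairs by the Benjamini-Hochberg method.

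On chromosome 9, 0 of 69 pairs passed, against 22 pairs higher (1.58%) and 1 lower (0.0720%) in T30 over all chromosomes. At an unadjusted p under 0.05, 4 chromosome 9 pairs were higher and 1 lower in T30. The smallest p was at the NOTCH1 loop above, with 27 contacts in T30. It was matched to the T0 loop from the bin of the SEC16A start site, with 16. The log2 ratio of this pair over the median ratio was 1.34 (0.40 to 2.33), with an exact binomial p of 0.00286 and an adjusted p of 0.142. The other 3 with higher values were in OLFM1, with 24 contacts in T30 and 17 in T0, in SHB, with 24 and 18, and at ANAPC2, where a T30 loop to NDOR1 with 29 was matched to a T0 loop to RNF208 with 22. The lower one was in RAPGEF1, an exchange factor gene, with 13 contacts in T30 and 38 in T0. Matched loops had 9 to 35 contacts each in T30 and 9 to 49 in T0. With such counts and 1 library each, small differences could go undetected.

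The genes of the chromosome were also read by group, over 9 lists with 146 distinct genes; each list's genes include all members, looped or not. Of all 778 chromosome 9 genes 30.6% had more and 8.61% fewer partners in T30, but the shares differ by place: in distal 9q 54.5% had more and 12.1% fewer, in proximal 9q 17.3 and 7.72%, and on the short arm 15.3 and 5.09%. Distal 9q holds 16 of the 20 lipocalin and prostaglandin genes and 11 of the 17 chromatin genes. Also there are 8 of the 15 exchange factors, kinases and related signalling genes and 3 of the 5 Notch and Groucho genes. It holds 3 of the 7 Krüppel-like factors and receptors, 12 of the 29 developmental factors, 10 of the 30 oncogenes and tumour suppressors, 6 of the 19 matrix genes and 8 of the 20 genes of other tissues. Nothing particular to a list is read from its counts. These lists were drawn up with earlier results of these data known.

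Of 7 Krüppel-like factor and nuclear receptor genes, 5 had a T30 and 1 a T0 loop end; 5 had more partners in T30 and 0 fewer, with a median change of 1. They are RXRA, NR6A1, KLF4, KLF9 with 1 loop of 16 contacts in T30, and NR5A1 with 1 loop of 12 contacts in T30 and none in T0. KLF9 encodes a transcription factor known as a progestin and glucocorticoid target. Its T30 loop joined the start-site bin to 70480001, and a T0 loop with 14 contacts joined the next bin, 0.344 kb outside the gene, to the same place. The T0 loops of KLF4 likewise start 0.232 kb outside the gene, so that with 10 kb added on each side KLF9 had 1 partner in each list and KLF4 3 in each. RORB and NR4A3 had no loop in either list.

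Among 5 Notch and Groucho genes, NOTCH1, EGFL7 and NRARP had a T30 loop end and none a T0 loop end. EGFL7, a secreted protein that binds Notch, had 1 T30 loop with 13 contacts and NRARP, an inhibitor of Notch signalling, 1 with 12. The co-repressor genes TLE1 and TLE4, in proximal 9q, had no loop.

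Exchange factors, kinases and related signalling genes numbered 15, of which 8 had a T30 and 4 a T0 loop end. All 8 had more partners in T30 and 0 had fewer. The 4 in both lists were VAV2, RAPGEF1 with 8 T30 and 6 T0 partners, RALGDS with 7 and 3, and ABL1 with 9 and 7. In T30 alone were RALGPS1 with 12, RGS3 with 6, DENND1A with 4 and ROR2 with 2 partners. JAK2, SYK and NTRK2 had no loop in either list.

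Of 20 lipocalin and prostaglandin genes, which encode small carriers of lipids and enzymes of prostaglandin metabolism, 10 had a T30 and 2 a T0 loop end. In T30, 10 had more partners and 1, PTGR1, fewer. LCN12 and PTGS1, which encodes cyclooxygenase 1, each had 3 T30 loops and no T0 loop. PTGES had 3 T30 loops with 56 contacts and 2 T0 loops with 83. LCN8, LCN10 and LCN15 are neighbours and each had 1 T30 loop with 21 contacts. PAEP, the progestin-responsive glycodelin gene, had none.

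Of 19 extracellular matrix genes, 10 had a T30 and 6 a T0 loop end; 10 had more and 2, TNC and SVEP1, fewer partners in T30. COL5A1, a fibrillar collagen gene, had 5 loops with 82 contacts in T30 and none in T0, and OLFML2A 4 with 72 and none. Among 17 chromatin and transcription genes the numbers were 9 in T30 and 4 in T0, with 7 more and 2 fewer; PHF19, a Polycomb-associated protein gene, had 3 loops with 41 contacts in T30 and none in T0, and the only loop of SET, with 55 contacts in T0, spans 10 kb. With loops of 20 kb or more, 8 of the 17 had more and 1, MED22, fewer partners in T30. Of 29 developmental transcription factors, 12 had a T30 and 5 a T0 loop end, with 10 more and 2 fewer. LMX1B had 9 partners in T30 and 3 in T0, PRRX2 had 5 and 0, and BARHL1 had 1 and 3.

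The 30 oncogenes and tumour suppressors had 8 with a T30 and 8 with a T0 loop end, 8 with more and 4 with fewer partners in T30. On the short arm CDKN2A and CDKN2B, neighbouring cell-cycle inhibitor genes, shared 1 T0 loop with 29 contacts between their start sites, over 10 kb, a span below the shortest in the T30 list. With loops of 20 kb or more only, 8 of the 30 had more and 1, XPA, fewer partners in T30. ENG had 5 T30 loops with 76 contacts and none in T0, and TRAF2 2 with 42 and none. PTCH1, TGFBR1, TSC1 and JAK2 had no loop in either list. Among 20 genes of clusters used in other tissues, such as interferon and olfactory receptor genes, 2 had a T30 and 2 a T0 loop end, OR1J2 and GRIN1 in both. None of the interferon genes of the list had one. The only T0 loop of GRIN1, with 44 contacts, spans under 20 kb. With loops of 20 kb or more, 1 of the 20 genes, OR1J2, had a T0 loop end. IFNK, an interferon gene outside the list, had 1 T30 and 0 T0 loops of 20 kb or more.

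The short arm, with few loops, had its own places. NFIB, which encodes a transcription factor that cooperates with steroid receptors at enhancers, had 3 T30 loops within the gene with 9, 14 and 13 contacts, the last 2 of them at its start site. In T0 it had 1 loop, of 910 kb, with 7 contacts. SHB had 3 T30 loops with 76 contacts and 1 T0 loop with 18. In the start bin of ATOSB there was 1 partner in T30 and 4 in T0. The short arm thus held both kinds of difference.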

How the data were processed

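The authors deposited 1 list of HiChIP loops per library, in bins of 5 kb. By their names, which include FitHiC, the lists are limited to a q-value of 0.05, with neighbouring contacts merged. The submitters' processing notes name Bowtie, hg38 and GRCh38; what settings the loop caller had, and whether replicates were pooled, is not given in the sources used here. The deposited contacts are raw counts of read pairs per pair of bins. Each loop's p-value and q-value are the authors' deposited values, and a deposited fraction of each cluster and other deposited columns with positions entered no result except the cluster ranges. The q-values filtered loops only. No column of another sample was used.

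Members and lists were chosen with earlier results of these data known. Protein-coding genes (19974 on chromosomes 1 to 22 and X, 778 on chromosome 9) came from RefSeq on GRCh38.p14; a gene counted where the bin at a loop's end overlapped it. Start sites came from the promoter table (677 of the 778). All list genes were found by symbol. Windows took loops by the first end, and the arms were parted at 43000000. Spans run from bin start to bin start.

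Loops were matched 1 to 1, nearest first, among those whose cluster ranges overlap at both ends by at least 1 bp, and each pair's contacts were tested against the median ratio of all pairs (exact binomial test, two-sided, Benjamini-Hochberg adjusted, threshold 0.05). Intervals of shares are exact binomial (Clopper-Pearson) at 95%, and those of ratios of loops come from the exact interval of the T30 share; they treat loops as independent, although loops share ends, and read pairs as independent molecules, which they need not be. Of the steps, only the test of pairs and the matching of loops were run on data with planted answers. The check of matching used unchanged copies of loops, so it covers exact copies only.

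Named were the 10 loops with most contacts, the 5 longest loops and the 10 bins richest in partners of each library, windows with 8 or more loops, the 12 genes with most partners and the 10 with the largest change in each direction, list members with a loop, the 5 matched loops with the largest and the 5 with the smallest ratio, matched loops with p under 0.05, and genes in such bins, of which the text gives a part; T0 loops with most contacts were also named among those of 20 kb or more. KLF9, PAXX partners and genes listed as without a loop were chosen after their values were seen. Other settings were q under 0.01, at least 10 contacts, spans of at least 20 kb, lists of equal length, other overlaps, gene definitions, scalings and another border; start sites, windows left out, classes of span and gene density, and gene partners in loops of 20 kb or more were added after the data were seen. Scripts ran in Python 3.11.15 with scipy 1.17.1, pandas 2.3.3, numpy 2.4.6 and, for plots, matplotlib 3.10.9. The response element was searched as a 13-base pattern on both strands.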

Additional observations from a re-analysis of the deposited data

How the results depend on the processing

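Of 91 values under other settings, 68 stayed within the interval of the reported value (for counts, within 1.5 times) and 23 moved. None of the loop ratios among them fell below 1, and turning round was not looked for in the other values. The chromosome 9 ratio by class of span was not among the 91. It was 0.944 from 200 to under 500 kb and 0.571 at 500 kb and more. With the T30 list held to the length of the T0 list, T30 loops per T0 loop were 1.89 on chromosome 9, 2.15 in distal 9q and 1.52 in the rest, median T30 contacts 14 and recurrent T30 loops 14.8%, while the ratio over the other chromosomes was 1.96. At q under 0.01 median T30 contacts were 14 and recurrent T30 loops 15.3%. Identical bins gave recurrence of 3.91% of T30 and 9.93% of T0 loops, and bins within 10 kb 19.5% and 47.4%. With the border at 130000000, distal 9q had 37.0% of T30 and 24.3% of T0 loops and a ratio of 3.88. Bins with either gene end gave 182 T30 genes, and start sites 117 T30 and 77 T0 genes. Without scaling, 1 matched loop was called, in RAPGEF1 and lower in T30 (exact binomial test, adjusted p = 0.0254), and 0 under the other settings run. Without distal 9q the ratio was 1.96. The ratio over the other chromosomes was 2.86 in spans from 20 to under 50 kb, 1.43 from 100 to under 200 kb, 1.63 from 200 to under 500 kb and 1.34 in windows of 10 to 19 genes. The cause of these moves was not tested, except that a wider or narrower overlap, border or gene definition counts more or fewer loops or genes by construction. No paired analysis was possible because each condition has 1 library. Depth is unknown, so a loop missing from a list is one not listed, not one shown to be absent.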

Other observations

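Some hubs of proximal 9q lay in bins outside protein-coding genes. Near GADD45G, which encodes a stress-induced regulator of growth arrest, the bin at 89665001 lies 58.4 kb from the gene and had 5 partners in T30 and 0 in T0, with 57 contacts in T30. The bin at 90100001, 493 kb from the same gene, had 3 partners in T30 and 5 in T0, with 36 and 75 contacts. Beside SLC44A1, the bin at 105155001 had 3 partners in T30 and 6 in T0, with 32 and 99 contacts, and the bin at 105415001, in the gene, 0 and 5. In distal 9q, the bin at 122350001, 15.5 kb from PTGS1, had 4 partners in each list, with 55 contacts in T30 and 84 in T0. On the short arm, bins at 12815001, in LURAP1L, and at 13060001, 40.7 kb from MPDZ, had 5 partners each in T30 and 0 in T0. These bins differ in which list gives them the more partners, and no test was made of single bins.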
